A study of Mus musculus with 8 samples.

Results

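TIM-3+ spleen CD4 T cells without Foxp3 reporter signal (GFPlow) were compared with wild-type regulatory T (Treg) cells. The comparison takes 5 of the 8 RNA sequencing libraries in the series and all genes of the table, of which 18851 of 54837 had enough counts to be tested. The 3 GFPlow libraries hold cells sorted as TIM-3+, FLAG+, GFP- and FoxP3-, from mice that carry Foxp3-eGFP-Cre-ERT2 together with FSF-TIM-3. The 2 WT libraries hold cells sorted as TIM-3-, FLAG-, GFP+ and FoxP3+, from mice with Foxp3-eGFP-Cre-ERT2 alone. All mice thus carried the Foxp3-eGFP-Cre-ERT2 allele, in which the Foxp3 gene drives GFP and a tamoxifen-activated Cre recombinase, and all received tamoxifen on 5 consecutive days. Age and sex are not given in the labels. The groups differ in the transgene and in 4 sort criteria at once, and these cannot be told apart. The remaining 3 libraries (GFPhi) come from the transgenic genotype and hold TIM-3+ and FLAG+ cells sorted as GFP+ and FoxP3+. In the fit they entered the count filter, the scaling and the estimate of spread between libraries. Nothing in the labels says that the libraries of a group came from separate animals, so p-values measure the spread between these libraries, which may be technical in part. Xist differed between libraries of each group (below), so the libraries of a group did not all come from the same animals.

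TIM-3, encoded by Havcr2, is a surface receptor of T cells and myeloid cells that is best known from effector and exhausted T cells. Treg cells are the CD4 T cells that depend on the transcription factor Foxp3, carry high levels of the IL-2 receptor alpha chain and CTLA-4, and restrain other immune cells. Conventional CD4 T cells lack Foxp3 and can take naive, helper, memory or cytotoxic states, each with its own transcription factors (TCF-1 and LEF-1 in naive and memory cells, T-bet and Eomes in cells of the type 1 and cytotoxic kind).

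The sort labels held in each library. Abundances are given as CPM, counts scaled to a common library size by TMM. Foxp3 (ENSMUSG00000039521, GRCm38 chromosome X, 7573644 to 7595245) stood at 2.45, 1.97 and 4.82 CPM in GFPlow libraries 1 to 3 and 41.7 and 63.2 CPM in WT libraries 1 and 2. Havcr2 (ENSMUSG00000020399, GRCm38 chromosome 11, 46454935 to 46481255) stood at 260.1, 127 and 538 CPM in GFPlow libraries 1 to 3 and 0.876 and 0.172 CPM in WT libraries 1 and 2, and GFPlow library 2 was the lowest of the 3 GFPlow libraries for both genes. Both proteins were gated, and the 2 genes serve as a check of the labels rather than as a result. The titles call all libraries Treg, whereas Foxp3 was 13.5 and 20.5 times lower in the GFPlow mean than in WT libraries 1 and 2. The GFPlow cells are therefore named here by their gate. Cd4 was present in all 5 libraries, at 400.4, 436 and 402 CPM in GFPlow libraries 1 to 3 and 109 and 298 CPM in WT libraries 1 and 2, as was the receptor chain gene Cd3e, at 427, 494 and 456 CPM in GFPlow libraries 1 to 3 and 190.1 and 418 CPM in WT libraries 1 and 2. Of the 2 CD8 genes, Cd8a did not exceed 4.05 CPM and Cd8b1 was at 28.3, 20.7 and 28.7 CPM against 37.7 and 15.9 CPM (log2 fold change -0.05, adjusted p = 0.945).

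Total counts ran from 44446215 to 55388756. WT library 1 stood apart, with counts in 18599 genes (21248 to 21549 in the other 4), 6.54% mitochondrial counts (2.35% to 2.78%) and 15.2% ribosomal protein counts (6.12% to 6.97%). Each group mixed libraries with and without Xist, which was at 184 CPM in GFPlow library 3 and 242 CPM in WT library 2, and the latter also held Y-linked counts (Ddx3y at 6.16 CPM). Each difference below is for this reason given against each WT library separately. In bulk RNA, fewer cells of a type and less RNA per cell cannot be told apart.

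In the fit to all libraries, more genes were called lower than higher in GFPlow cells, and the lower genes included defining genes of Treg cells. Across both WT libraries, edgeR's quasi-likelihood test called 623 genes at an adjusted p under 0.05 (Benjamini-Hochberg over all 18851 genes, 3.3%), of which 203 were higher (1.08%) and 420 were lower (2.23%) in GFPlow. A called gene was then kept if the GFPlow mean lay at least 2-fold to the same side of WT library 1 and of WT library 2, each taken alone. This left 169 higher genes (0.897% of those tested) and 366 lower genes (1.94%), 144 and 288 of them protein coding. A 4-fold difference from each WT library was reached by 83 of the higher and 214 of the lower genes, and a 16-fold difference by 34 and 73. Among the 88 called genes that were not kept, 34 were higher and 54 lower.

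The 2 WT libraries gave very different numbers of differences. Against WT library 1 alone 11117 genes lay at least 2-fold away from the GFPlow mean, and against WT library 2 alone 4532. Both agreed on 1259 higher and 1317 lower genes and disagreed in direction on 872. In fits with a single WT library, 9002 of 20524 genes (43.9%) were called against WT library 1 and 1209 of 20545 (5.88%) against WT library 2, with the lone library assumed to vary like those of the other groups. Against WT library 1 the split was 5114 higher and 3888 lower, but 4150 higher and 4966 lower with upper quartile scaling. Against WT library 2 it was 513 higher and 696 lower. Of the 535 kept genes, 535 were called in the same direction against WT library 1 alone and 472 against WT library 2 alone (155 higher, 317 lower). Kept genes had been chosen by their differences from these same WT libraries, so this overlap was partly fixed in advance. The edge of the rule ran between Slc12a7 (log2 difference 1.004 from WT library 2) and Slco3a1 (0.991, not kept) among higher genes, and between Decr1 (-1.01) and Pglyrp1 (-0.995, not kept) among lower genes.

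**Figure D1:**
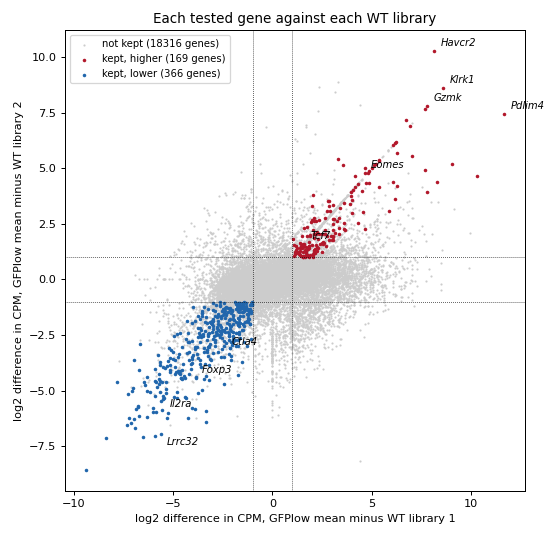
Each point is a tested gene. The horizontal axis is the log2 difference in CPM between the GFPlow mean and WT library 1, the vertical axis the same against WT library 2, and dotted lines mark 2-fold. Kept genes (169 higher in red, 366 lower in blue) lie in the upper right and lower left, while the uncalled genes spread further along the axis of WT library 1.

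The size of these counts rested on the libraries used. Without GFPlow library 1, 2 or 3 the calls numbered 213, 227 and 227, without GFPhi library 1, 2 or 3 they numbered 312, 302 and 329, and with only the 5 libraries compared 33 genes were called. The balance of directions moved as well. With only the 5 libraries compared, 17 of the called genes were higher and 16 lower. Among all genes tested, whether called or not, the 3 GFPlow libraries lay above both WT libraries for 3983 (21.1%) and below both for 3617 (19.2%). Among the 74 called genes that the naming rule selects, 44 stayed past the threshold whichever library was left out, and the others named below are given with the highest adjusted p. With only the 5 libraries compared, Eomes, Tbx21, Slc16a5, Pde3b, Sgk1, Lypd6b, Ampd1, St3gal6 and Cxcr6 stayed called as higher. Il2ra, Gsta4, Naip5, Cd83, Mctp1, Tnfrsf4, Ctla4 and Lta stayed called as lower. All others of the 74 lost their calls there.

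GFPlow cells carried transcripts of cytotoxic and type 1 effector genes that were absent or near 0 in both WT libraries. Gzmk, which encodes the granule protease granzyme K, was at 7.71, 5.69 and 15.1 CPM in GFPlow libraries 1 to 3 and 0 and 0 CPM in WT libraries 1 and 2. GFPlow library 3 was the highest, and no read was counted in WT. GFPhi libraries 1 to 3 held 3, 0 and 0 counts. Gzmk thus passed the count filter only through GFPlow, and its direction was fixed in advance. Against a floor of 3 counts per library the GFPlow mean was at least 97.5-fold higher than WT library 1 and at least 184-fold higher than WT library 2 (adjusted p = 0.0138). Klrk1, the gene of the activating receptor NKG2D, was at 4.11, 22.7 and 39.5 CPM in GFPlow libraries 1 to 3 and 0 and 0 CPM in WT libraries 1 and 2. GFPlow library 1 was far below the other two, yet all 3 lay above WT, by at least 227-fold and 427-fold for the mean (adjusted p = 0.012). These limits cover counting error only. Gzmk lost its call without GFPlow libraries 1 and 3 (adjusted p up to 0.0562). Gzmk and Klrk1 also lost their calls with the replicate number as a block and with only the 5 libraries compared. A fit by limma voom with sample quality weights called neither of them. It also did not call Eomes, Tbx21, Tcf7, Cd40lg, Pdlim4, Slc16a5, Pde3b and Vipr1, described below, nor the gated Havcr2. The same held for Sgk1, Ampd1, St3gal6, Cxcr6, Lypd6b, Tdrp and Hid1, also described below. In all, that fit called 5 genes as higher and 69 as lower.

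The transcription factors Eomes and T-bet rose as well. Eomes was at 10.4, 7.4 and 7.52 CPM in GFPlow libraries 1 to 3 and 0.292 and 0.259 CPM in WT libraries 1 and 2. The GFPlow libraries did not overlap with WT, where 9 and 15 reads were counted (log2 fold change 4.93 ± 0.66 SE, adjusted p = 0.0083). Tbx21, which encodes T-bet, was at 17.5, 15.3 and 18.1 CPM in GFPlow libraries 1 to 3 and 1.59 and 1.78 CPM in WT libraries 1 and 2. All GFPlow libraries were close to each other and far above both WT libraries (log2 fold change 3.33 ± 0.34 SE, adjusted p = 0.00379). In GFPhi cells, which share the transgene and the TIM-3 gate but not the GFP gate, Eomes was at 3.81, 2.37 and 1.07 CPM and Tbx21 at 6.07, 7.57 and 4.48 CPM.

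Tcf7, the gene of the naive and memory T cell factor TCF-1, was at 632, 626 and 511 CPM in GFPlow libraries 1 to 3 and 193 and 194 CPM in WT libraries 1 and 2. It was higher in all 3 GFPlow libraries by similar amounts against each WT library, with log2 differences of 1.61 and 1.59 (log2 fold change 1.61 ± 0.20 SE, adjusted p = 0.00554). Cd40lg, which encodes the CD40 ligand by which helper T cells activate B cells and dendritic cells, was at 142, 156 and 144 CPM in GFPlow libraries 1 to 3 and 52.4 and 37.3 CPM in WT libraries 1 and 2. The GFPlow libraries lay within a narrow range above both WT libraries (log2 fold change 1.71 ± 0.21 SE, adjusted p = 0.00528). Tcf7 and Cd40lg lost their calls with only the 5 libraries compared and in a test of a log2 change above 1. Gzmk, Klrk1, Eomes, Tcf7 and Cd40lg were picked with earlier results of these data known, so their rise is no independent evidence.

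Among kept genes with a mean log2 CPM above 3, and outside Havcr2, the smaller of the 2 differences from WT was largest for Pdlim4, Slc16a5, Pde3b and Vipr1. Pdlim4, a PDZ and LIM domain protein of the actin cytoskeleton, was at 127, 118 and 141 CPM in GFPlow libraries 1 to 3 and 0 and 0.707 CPM in WT libraries 1 and 2. No read was found in WT library 1 and 41 in WT library 2, so the GFPlow mean was at least 1325-fold higher than WT library 1 and 182-fold higher than WT library 2 (adjusted p = 0.00976). Slc16a5, a member of the monocarboxylate transporter family, was at 77.9, 60.5 and 54.7 CPM in GFPlow libraries 1 to 3 and 0.779 and 1.21 CPM in WT libraries 1 and 2. Its GFPlow mean was 82.6-fold and 53.3-fold above WT libraries 1 and 2 (log2 fold change 5.99 ± 0.43 SE, adjusted p = 0.00122). Pde3b, a phosphodiesterase that breaks down cyclic AMP, was at 70.5, 81 and 97.4 CPM in GFPlow libraries 1 to 3 and 1.98 and 1.93 CPM in WT libraries 1 and 2. The WT values were almost equal and the GFPlow values all lay above them (log2 fold change 5.41 ± 0.66 SE, adjusted p = 0.0059). Vipr1, a receptor for vasoactive intestinal peptide, was at 47.5, 57.2 and 61.1 CPM in GFPlow libraries 1 to 3 and 0.681 and 2.93 CPM in WT libraries 1 and 2. GFPlow libraries were similar and both WT libraries were low, though they differed from each other (log2 fold change 4.90 ± 0.73 SE, adjusted p = 0.0127).

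Further genes rose by smaller amounts and with little spread among GFPlow libraries. Sgk1, a kinase induced by glucocorticoids and salt, averaged 195 ± 35.8 CPM (SD, n = 3) in GFPlow, against 11.9 and 16.1 CPM in WT libraries 1 and 2 (log2 fold change 3.80, adjusted p = 0.00122). Ampd1, the AMP deaminase of purine metabolism, averaged 45.2 ± 2.15 CPM (SD, n = 3), against 5.94 and 5.28 CPM (log2 fold change 3.01, adjusted p = 0.00276). St3gal6, a sialyltransferase, averaged 38.4 ± 1.75 CPM (SD, n = 3), against 5.32 and 3.9 CPM (log2 fold change 3.06, adjusted p = 0.00507). Cxcr6, a chemokine receptor of effector and tissue T cells, averaged 221 ± 34.3 CPM (SD, n = 3), against 32.3 and 26 CPM (log2 fold change 2.92, adjusted p = 0.00432). For all of these the lowest GFPlow library exceeded the higher WT library. The same held for Lypd6b (log2 fold change 3.54, adjusted p = 0.00436), Tdrp (log2 fold change 3.44, adjusted p = 0.00737) and Hid1 (log2 fold change 3.90, adjusted p = 0.0359). Hid1 lost its call without each GFPlow library and each GFPhi library (adjusted p up to 0.115).

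**Figure D2:**
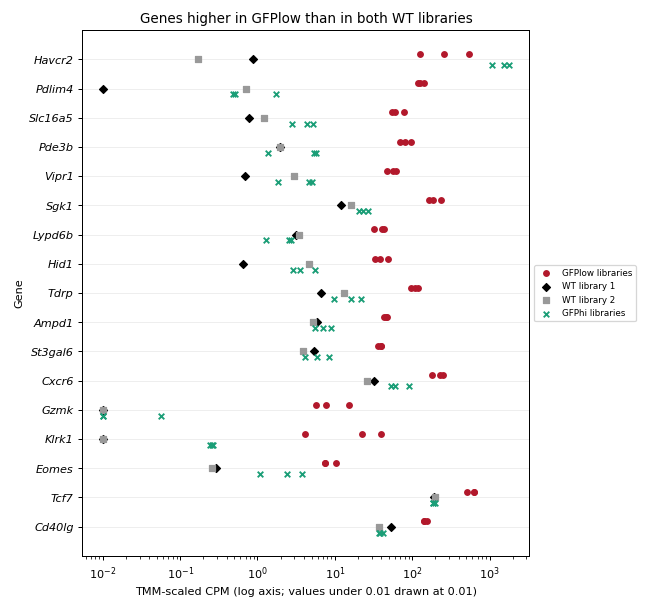
CPM on a log axis for the 12 higher genes whose smaller difference from the 2 WT libraries was largest (mean log2 CPM above 3, no predicted genes) and for Gzmk, Klrk1, Eomes, Tcf7 and Cd40lg. Red points are the 3 GFPlow libraries, black and grey symbols WT libraries 1 and 2, and green crosses the 3 GFPhi libraries, shown for reference. In each row all red points lie to the right of both WT symbols.

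Several genes with a known place in Treg biology were far lower in GFPlow cells than in either WT library. Il2ra, the alpha chain of the high-affinity IL-2 receptor, was at 7.27, 11.6 and 16.3 CPM in GFPlow libraries 1 to 3 and 517 and 662 CPM in WT libraries 1 and 2. Each GFPlow library was far below both WT libraries, the mean 44.2 and 56.6 times lower (log2 fold change -5.66 ± 0.36 SE, adjusted p = 0.00122). Lrrc32, which encodes GARP, the surface anchor of latent TGF-beta, was at 0.822, 1.26 and 3.02 CPM in GFPlow libraries 1 to 3 and 74.5 and 185 CPM in WT libraries 1 and 2. The mean was 43.8 and 109 times lower (log2 fold change -6.25 ± 0.61 SE, adjusted p = 0.00371). Penk, the precursor of the enkephalin peptides, was at 16.9, 6.48 and 6.04 CPM in GFPlow libraries 1 to 3 and 213 and 192 CPM in WT libraries 1 and 2. GFPlow library 1 was higher than libraries 2 and 3 but still below WT (log2 fold change -4.36 ± 0.47 SE, adjusted p = 0.00436). Socs2, an inhibitor of cytokine signalling that STAT5 induces, was at 4.48, 4.9 and 14.5 CPM in GFPlow libraries 1 to 3 and 156 and 97.2 CPM in WT libraries 1 and 2. GFPlow library 3 was the highest of its group and did not reach WT (log2 fold change -3.99 ± 0.52 SE, adjusted p = 0.00737).

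Other genes of the lower group have no single shared role. Dnah7a, an axonemal dynein heavy chain, was at 2.6, 0.325 and 2.96 CPM in GFPlow libraries 1 to 3 and 84.5 and 186 CPM in WT libraries 1 and 2 (log2 fold change -6.10 ± 0.79 SE, adjusted p = 0.00737). Gsta4, a glutathione transferase, was at 3.19, 2.97 and 2.15 CPM in GFPlow libraries 1 to 3 and 141 and 65.4 CPM in WT libraries 1 and 2 (log2 fold change -5.22 ± 0.41 SE, adjusted p = 0.00146). The groups did not overlap for either gene, and the 2 WT libraries differed from each other in opposite directions. Rgs1, which shortens chemokine receptor signals, was at 65.8, 28.4 and 50.8 CPM in GFPlow libraries 1 to 3 and 1621 and 654 CPM in WT libraries 1 and 2 (log2 fold change -4.56 ± 0.47 SE, adjusted p = 0.00405). Cd83, a surface protein of activated lymphocytes and dendritic cells, was at 32.9, 21 and 26.8 CPM in GFPlow libraries 1 to 3 and 319 and 405 CPM in WT libraries 1 and 2 (log2 fold change -3.75 ± 0.29 SE, adjusted p = 0.00146). Naip5, a sensor of bacterial flagellin, was at 2.75, 1.89 and 3.04 CPM against 36.8 and 53.8 CPM (log2 fold change -4.14, adjusted p = 0.00146). Mctp1, a calcium-binding membrane protein, had the smallest relative spread of these in GFPlow, at 3.06, 3.17 and 3.27 CPM against 33.6 and 45.1 CPM (log2 fold change -3.63, adjusted p = 0.00122). Pdzk1ip1, a small membrane protein, was at 3.53, 2.38 and 0.833 CPM against 115 and 48 CPM (log2 fold change -5.18, adjusted p = 0.0063).

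**Figure D3:**
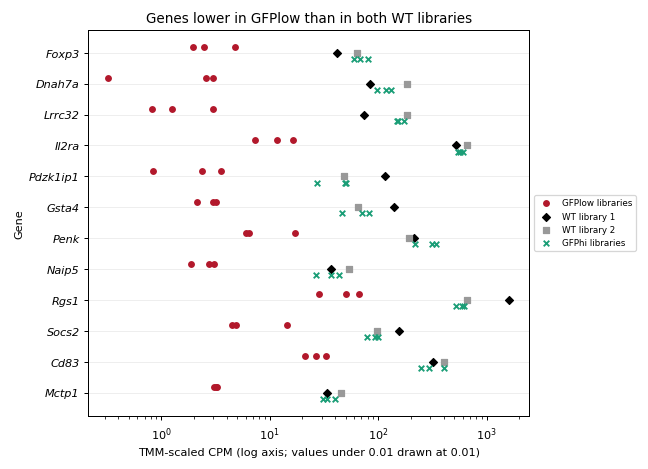
CPM on a log axis for the 12 lower genes whose smaller difference from the 2 WT libraries was largest (mean log2 CPM above 3, no predicted genes), including Foxp3, which the sort selected. Red points are the 3 GFPlow libraries, black and grey symbols WT libraries 1 and 2, and green crosses the 3 GFPhi libraries. All red points lie to the left of both WT symbols and of the GFPhi libraries in each row.

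Of 25 genes of the Treg lineage list, 18 were kept as lower and 0 as higher, against 1.94% kept as lower among all genes tested (median log2 fold change -2.60, with medians of -2.19 against WT library 1 and -2.78 against WT library 2). For all genes tested these medians were 0.02, 0.20 and -0.02. The list was compiled with these results known and describes only this set. Besides Foxp3, Il2ra and Lrrc32, it held the TNF receptor family member OX40 (Tnfrsf4), at 138, 155 and 157 CPM in GFPlow libraries 1 to 3 and 2219 and 1239 CPM in WT libraries 1 and 2 (log2 fold change -3.53 ± 0.27 SE, adjusted p = 0.00146). Ctla4, the inhibitory receptor that removes CD80 and CD86 from other cells, was at 52, 65.7 and 53.4 CPM in GFPlow libraries 1 to 3 and 303 and 389 CPM in WT libraries 1 and 2 (log2 fold change -2.60 ± 0.20 SE, adjusted p = 0.00146). Both genes separated the groups without overlap. The Ikaros family factors Ikzf2 (153, 210.4 and 144 CPM against 2786 and 1149 CPM) and Ikzf4 (12.6, 22 and 17.9 CPM against 104 and 192 CPM) were kept as lower too, chosen for mention after their values were seen. One member lay the other way. Il10, the gene of an anti-inflammatory cytokine, was at 3.03, 9.59 and 3.45 CPM against 0 and 0.362 CPM and did not pass (log2 fold change 4.73, adjusted p = 0.0713).

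Of 22 costimulatory and TNF receptor genes tested, 4 were kept as lower and 0 as higher, against 1.94% and 0.897% of all genes. The 4 were all of the TNF receptor family, Tnfrsf4, Tnfrsf9 (4-1BB), Tnfrsf18 (GITR) and Tnfrsf8 (CD30). Tnfrsf9 was at 42.4, 45 and 45.2 CPM in GFPlow libraries 1 to 3 and 187 and 309 CPM in WT libraries 1 and 2 (log2 fold change -2.49 ± 0.24 SE, adjusted p = 0.00371), and Tnfrsf18 at 169, 179.8 and 195 CPM in GFPlow libraries 1 to 3 and 1220.4 and 668 CPM in WT libraries 1 and 2 (log2 fold change -2.38 ± 0.27 SE, adjusted p = 0.00467). Tnfrsf8 was low throughout, at 0.822, 0.67 and 0.174 CPM against 8.34 and 5.6 CPM (log2 fold change -3.64, adjusted p = 0.0307). The costimulatory receptor genes Cd28 (log2 fold change 0.47, adjusted p = 0.186) and Icos (log2 fold change -0.13, adjusted p = 0.688) did not pass. Tnfrsf8 lost its call without each GFPlow library and GFPhi libraries 1 and 3 (adjusted p up to 0.111).

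Among 17 co-inhibitory receptors and ligands, 2 were kept as higher and 4 as lower (0.897% and 1.94% of all genes). The higher genes were Havcr2, which the gate selects, and Lair1, a collagen receptor, at 12, 13.3 and 18.1 CPM against 1.17 and 0.362 CPM (log2 fold change 4.27, adjusted p = 0.00749). Lower were Ctla4, Entpd1, Pdcd1lg2 and Cd200. Entpd1 encodes CD39, the ectoenzyme that degrades extracellular ATP, and was at 7.79, 7.38 and 7.25 CPM in GFPlow libraries 1 to 3 and 30.3 and 58.4 CPM in WT libraries 1 and 2 (log2 fold change -2.57 ± 0.28 SE, adjusted p = 0.00436). Pdcd1lg2, the gene of the PD-1 ligand PD-L2, was at 7.19, 9.37 and 12.1 CPM in GFPlow libraries 1 to 3 and 115 and 46.1 CPM in WT libraries 1 and 2 (log2 fold change -3.07 ± 0.40 SE, adjusted p = 0.00737). Cd200, the ligand of an inhibitory receptor of myeloid cells, was at 89.8, 79.9 and 79.1 CPM against 177 and 219.6 CPM (log2 fold change -1.26, adjusted p = 0.0138). The receptors that often accompany TIM-3 did not pass. Pdcd1 (PD-1) was at 97.1, 119 and 68.5 CPM against 46.8 and 182 CPM (log2 fold change -0.27, adjusted p = 0.761), and Lag3 at 1.18, 3.78 and 1.18 CPM against 0.941 and 2.16 CPM (log2 fold change 0.39, adjusted p = 0.734). Tigit was at 44.8, 51.8 and 24.7 CPM against 124 and 51.4 CPM (log2 fold change -1.12, adjusted p = 0.153), and for Pdcd1 the GFPlow values lay between those of the 2 WT libraries. Cd200 lost its call without each GFPlow library (adjusted p up to 0.0802).

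Of 21 regulators and markers of naive and memory T cells, 6 were kept as higher (0.897% of all genes) and 0 as lower, and 17 had a fold change above 0 (median log2 fold change 0.84, with medians of 0.85 against WT library 1 and 0.79 against WT library 2). Lef1, the partner of TCF-1, was at 622, 622 and 619 CPM in GFPlow libraries 1 to 3 and 131 and 224 CPM in WT libraries 1 and 2 (log2 fold change 1.80 ± 0.26 SE, adjusted p = 0.0103). Satb1, a chromatin organiser, was at 404, 401 and 379 CPM in GFPlow libraries 1 to 3 and 137 and 132 CPM in WT libraries 1 and 2 (log2 fold change 1.55 ± 0.17 SE, adjusted p = 0.00436), and Txk, a kinase of the Tec family, at 337, 307 and 343 CPM in GFPlow libraries 1 to 3 and 116 and 114 CPM in WT libraries 1 and 2 (log2 fold change 1.52 ± 0.18 SE, adjusted p = 0.00477). The GFPlow libraries of each gene lay within a narrow range above both WT libraries. Il7r, the receptor for the survival cytokine IL-7, was at 669, 622 and 717 CPM in GFPlow libraries 1 to 3 and 242 and 239.9 CPM in WT libraries 1 and 2 (log2 fold change 1.47 ± 0.23 SE, adjusted p = 0.0151). Ccr7, which guides naive and central memory cells into lymph nodes, was at 1156, 1125 and 1072 CPM against 265 and 582 CPM without passing (log2 fold change 1.40, adjusted p = 0.0722). The sixth kept gene was Igfbp4. Bcl2, on the same list, was called lower but lay less than 2-fold below WT library 2 (-1.25 and -0.82 as log2 differences from WT libraries 1 and 2). Il7r lost its call without each GFPlow library (adjusted p up to 0.0716), as did Bcl2 without each GFPlow library and each GFPhi library (adjusted p up to 0.178).

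Of 23 lineage factors, 3 were kept as higher (Tbx21, Eomes and Runx3) and 1 as lower (Ahr), against 0.897% and 1.94% of all genes. Runx3, a factor of cytotoxic and type 1 cells, was at 35.9, 33.4 and 30.4 CPM against 9.18 and 11.6 CPM (log2 fold change 1.67, adjusted p = 0.0409). Ahr, the aryl hydrocarbon receptor, was at 7.55, 7.88 and 5.71 CPM against 20.5 and 17 CPM (log2 fold change -1.41, adjusted p = 0.0219). Batf, an AP-1 factor, was called lower without reaching 2-fold against WT library 2 (-1.44 and -0.80). Gata3 and Bcl6, factors of other helper lineages, did not pass. Gata3 of type 2 cells was at 53.5, 58.6 and 54.1 CPM against 86.9 and 84.9 CPM (log2 fold change -0.63, adjusted p = 0.0761), and Bcl6 of follicular helper cells at 12.7, 18.8 and 8.19 CPM against 21.9 and 10.7 CPM (log2 fold change -0.30, adjusted p = 0.675). Ahr lost its call without each GFPlow library and each GFPhi library (adjusted p up to 0.09), as did Batf without each GFPlow library and each GFPhi library (adjusted p up to 0.157). For Runx3, outside the naming rule, the call with a library left out is not given.

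Of 19 ligands and cytokines tested on the list headed by CD40 ligand, 1 (Cd40lg) was kept as higher and 3 as lower (0.897% and 1.94% of all genes). Lta, the gene of lymphotoxin alpha, was at 44.1, 48 and 42.1 CPM in GFPlow libraries 1 to 3 and 214 and 231 CPM in WT libraries 1 and 2. All GFPlow libraries lay well below both WT libraries, whose values were close (log2 fold change -2.31 ± 0.17 SE, adjusted p = 0.00125). Tnfsf11, which encodes RANK ligand, was at 12.3, 16.5 and 7.75 CPM in GFPlow libraries 1 to 3 and 77.7 and 34.3 CPM in WT libraries 1 and 2 (log2 fold change -2.20 ± 0.41 SE, adjusted p = 0.0307). Ccl1, the chemokine that binds CCR8, was at 0.729, 0.102 and 0 CPM in GFPlow libraries 1 to 3 and 53.4 and 23.1 CPM in WT libraries 1 and 2 (log2 fold change -7.08 ± 1.53 SE, adjusted p = 0.0499). Ifng was at 11, 12 and 6.12 CPM against 20.9 and 3.83 CPM (log2 fold change -0.34, adjusted p = 0.78), and Il2 at 2.28, 5.57 and 3.14 CPM against 3.34 and 0.586 CPM (log2 fold change 0.91, adjusted p = 0.473). Neither cytokine gene passed, and their ranges overlapped with WT. The fitted median of the list and its medians against single WT libraries differed in sign (median log2 fold change -0.22, with medians of 0.03 against WT library 1 and 0.10 against WT library 2). Tnfsf11 lost its call without each GFPlow library, each GFPhi library and WT library 1 (adjusted p up to 0.123), as did Ccl1 without each GFPlow library, GFPhi libraries 1 and 2 and WT library 1 (adjusted p up to 0.189).

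Receptors for cytokines and their signalling genes mostly did not pass. Of 33 tested, 1 was kept as higher (Il7r) and 3 as lower (0.897% and 1.94% of all genes). Il1r2, a decoy receptor for IL-1, was at 10.8, 8.82 and 6.35 CPM in GFPlow libraries 1 to 3 and 197 and 69 CPM in WT libraries 1 and 2 (log2 fold change -3.94 ± 0.57 SE, adjusted p = 0.0115). Tgfbr1, the type I receptor for TGF-beta, was at 29, 34 and 31.1 CPM in GFPlow libraries 1 to 3 and 162 and 84.8 CPM in WT libraries 1 and 2 (log2 fold change -1.97 ± 0.27 SE, adjusted p = 0.0083). Cish, an inhibitor that STAT5 induces, was at 28.5, 26.6 and 43.3 CPM in GFPlow libraries 1 to 3 and 85.9 and 223 CPM in WT libraries 1 and 2 (log2 fold change -2.24 ± 0.39 SE, adjusted p = 0.0225). The groups did not overlap for any of these, though the WT libraries differed from each other. Of the other IL-2 receptor chains, Il2rb was at 121, 122 and 143 CPM against 165 and 507 CPM (log2 fold change -1.38, adjusted p = 0.108) and Il2rg at 1044, 1068 and 1136 CPM against 795 and 967 CPM (log2 fold change 0.30, adjusted p = 0.381), and neither passed. Il1r2 lost its call without each GFPlow library (adjusted p up to 0.0625), as did Tgfbr1 without GFPlow library 1 (adjusted p up to 0.0531) and Cish without each GFPlow library and each GFPhi library (adjusted p up to 0.109).

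Most cytotoxic granule genes were not kept. Of 18 tested, 3 were kept as higher (Gzmk, Prf1 and Fasl) and 1 as lower (Cst7), against 0.897% and 1.94% of all genes. Prf1, the gene of perforin, was at 22.6, 24.5 and 27.4 CPM in GFPlow libraries 1 to 3 and 5.87 and 1.72 CPM in WT libraries 1 and 2 (log2 fold change 2.72 ± 0.55 SE, adjusted p = 0.0386), and Fasl, the death ligand, at 41.8, 47.8 and 46.2 CPM in GFPlow libraries 1 to 3 and 6.29 and 13.3 CPM in WT libraries 1 and 2 (log2 fold change 2.20 ± 0.33 SE, adjusted p = 0.0138). Cst7, which encodes the protease inhibitor cystatin F, was at 82.6, 69.2 and 63.2 CPM in GFPlow libraries 1 to 3 and 666 and 391 CPM in WT libraries 1 and 2 (log2 fold change -2.88 ± 0.27 SE, adjusted p = 0.00325). Lamp1, a lysosomal membrane protein, was called lower and not kept (-1.89 and -0.95). The other granzymes were uneven among GFPlow libraries and did not pass. Gzma was at 6.05, 0.569 and 38 CPM against 0 and 0 CPM (adjusted p = 0.108), and Gzmb at 16.4, 2.19 and 20.6 CPM against 3.31 and 7.69 CPM (log2 fold change 1.24, adjusted p = 0.417). Fasl lost its call without each GFPlow library (adjusted p up to 0.0578), as did Lamp1 without each GFPlow library and each GFPhi library (adjusted p up to 0.138). Prf1 lies outside the naming rule, and whether its call holds with a library left out is not given.

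Of 19 NK-type receptors and adaptors, 1 (Klrk1) was kept as higher (0.897% of all genes). The list's median was 0.94, but -1.002 against WT library 1 and 1.64 against WT library 2. Crtam, a receptor of activated cytotoxic cells, was at 8.65, 10.7 and 8.25 CPM in GFPlow libraries 1 to 3 and 0.389 and 0 CPM in WT libraries 1 and 2 and just missed the threshold (log2 fold change 5.72, adjusted p = 0.0513). Hcst, the gene of the adaptor DAP10 through which NKG2D signals, was at 272, 272 and 279 CPM against 935 and 238 CPM (log2 fold change -1.10, adjusted p = 0.185). Klrb1c, which encodes NK1.1, was at 10.1, 11.1 and 31.4 CPM against 4.45 and 1.59 CPM (log2 fold change 2.55, adjusted p = 0.102). Klrg1 went the other way, at 28.5, 7.9 and 10.3 CPM against 47 and 88.2 CPM (log2 fold change -2.12, adjusted p = 0.0779). NK genes differed in where they were counted. Klrd1, which encodes CD94, was at 14.4, 14.4 and 19.2 CPM against 3.08 and 0 CPM and did not pass (log2 fold change 3.41, adjusted p = 0.237), with similar values in the 3 GFPlow libraries. Others had counts mainly in GFPlow library 3, with Ncr1 at 0, 0 and 7.81 CPM against 1.33 and 0 CPM and Tyrobp at 2.22, 0.528 and 23.8 CPM against 2.43 and 4.03 CPM.

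Few receptors for migration passed the test. Of 30 tested, 2 were kept as higher (Cxcr6 and Cxcr3) and 2 as lower (Ccr8 and Itgae), against 0.897% and 1.94% of all genes, while 24 had a fold change above 0. Cxcr3, the receptor for interferon-induced chemokines, was at 136, 184 and 173 CPM in GFPlow libraries 1 to 3 and 63.6 and 71.6 CPM in WT libraries 1 and 2 (log2 fold change 1.28 ± 0.21 SE, adjusted p = 0.016). Ccr8, a chemokine receptor of Treg cells, was at 8.56, 5.2 and 11.1 CPM in GFPlow libraries 1 to 3 and 34.8 and 67.2 CPM in WT libraries 1 and 2 (log2 fold change -2.62 ± 0.38 SE, adjusted p = 0.0115), and Itgae, the integrin alpha E gene, at 4.26, 6.2 and 7.98 CPM against 18.5 and 37.1 CPM (log2 fold change -2.18, adjusted p = 0.0369). S1pr4 was called higher without reaching 2-fold against WT library 2 (1.63 and 0.97). Ccr8 lost its call without GFPlow library 1 (adjusted p up to 0.0618), as did Cxcr3 without GFPlow libraries 2 and 3 (adjusted p up to 0.0753) and S1pr4 without each GFPlow library and each GFPhi library (adjusted p up to 0.114). For Itgae, outside the naming rule, the call with a library left out is not given.

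Of 21 genes of the T cell receptor complex and its signalling, 2 were kept as higher, Themis among them, and 0 as lower (0.897% and 1.94% of all genes). Themis, an adaptor of receptor signalling, was at 217, 255 and 244 CPM in GFPlow libraries 1 to 3 and 64.9 and 60.7 CPM in WT libraries 1 and 2 (log2 fold change 1.93 ± 0.19 SE, adjusted p = 0.00371). It was higher in each GFPlow library than in either WT library. Genes that respond to receptor signals included 2 kept as lower among 25 tested, Rgs1 and Nr4a3, and 0 kept as higher (1.94% and 0.897% of all genes). Nr4a3, an orphan nuclear receptor induced by receptor signals, was at 3.62, 6.24 and 2.71 CPM against 27.1 and 17.4 CPM (log2 fold change -2.41, adjusted p = 0.0418), whereas Nr4a1 was at 13.8, 16.6 and 17.7 CPM against 17.7 and 23.1 CPM (log2 fold change -0.35, adjusted p = 0.481) and did not pass. The follicular helper list of 16 genes held Cd40lg as its 1 higher and Cd200 as its 1 lower gene (0.897% and 1.94% of all genes). Nr4a3 lost its call without each GFPlow library, each GFPhi library and WT library 1 (adjusted p up to 0.161).

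Most genes that make, sense or degrade cyclic nucleotides were not kept. Of 19 tested, 2 were kept as higher (Pde3b and Rapgef4) and 2 as lower (Ptger2 and Crem), against 0.897% and 1.94% of all genes. Rapgef4, a guanine nucleotide exchange factor that cyclic AMP activates, was at 41.2, 37.7 and 26.7 CPM in GFPlow libraries 1 to 3 and 4.15 and 7.4 CPM in WT libraries 1 and 2 (log2 fold change 2.60 ± 0.36 SE, adjusted p = 0.00922). Ptger2, a prostaglandin E2 receptor that raises cyclic AMP, was at 18, 24.5 and 20.3 CPM in GFPlow libraries 1 to 3 and 81.1 and 132 CPM in WT libraries 1 and 2 (log2 fold change -2.35 ± 0.24 SE, adjusted p = 0.00405). Crem, a transcription factor of the same pathway, was at 19.9, 21.4 and 24.9 CPM against 73.7 and 45.5 CPM (log2 fold change -1.43, adjusted p = 0.0189). Neither Rapgef4 nor Ptger2 had overlapping groups. Pde4b was called higher at 185, 168 and 155 CPM against 70.3 and 92.2 CPM without reaching 2-fold against WT library 2. Crem lost its call without each GFPlow library and GFPhi libraries 1 and 2 (adjusted p up to 0.0988).

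Survival genes gave 1 kept as higher (Fasl) and 2 as lower of 20 tested (0.897% and 1.94% of all genes). Tnfsf10, the gene of the death ligand TRAIL, was at 12.6, 12.6 and 17.9 CPM against 36.1 and 34 CPM (log2 fold change -1.29, adjusted p = 0.0267), and Bcl2a1b, an anti-apoptotic BCL2 relative with near-identical copies that make its counts uncertain, at 15.4, 16.4 and 13 CPM against 161 and 35.4 CPM (log2 fold change -2.72, adjusted p = 0.0315). Of 20 glycolysis genes, 1 was kept as higher, the transporter Slc16a5, and 1 as lower, Hk2, with the same shares of all genes. Hk2, an inducible hexokinase, was at 0.43, 0.508 and 1.47 CPM in GFPlow libraries 1 to 3 and 13.4 and 7.09 CPM in WT libraries 1 and 2 (log2 fold change -3.66 ± 0.60 SE, adjusted p = 0.0183). All 3 GFPlow libraries were below both WT libraries. Gapdh is left out of account because near-identical copies make its counts uncertain. Tnfsf10 lost its call without GFPlow libraries 1 and 2 and each GFPhi library (adjusted p up to 0.116), as did Bcl2a1b without each GFPlow library and each GFPhi library (adjusted p up to 0.128) and Hk2 without GFPlow libraries 1 and 2 and GFPhi library 2 (adjusted p up to 0.0845).

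Outside the marker lists of other cells, edgeR called no gene on 4 of the lists. These were oxidative phosphorylation (27 genes tested), cholesterol synthesis (20), the cell cycle (22) and interferon-stimulated genes (26). Unadjusted p was under 0.05 for 17, 4, 8 and 7 of them, DESeq2 called 13, 3, 4 and 2, and limma voom called none. Among all 18851 genes tested, unadjusted p was under 0.05 for 4722, DESeq2 called 3243 and limma voom called 74. The oxidative phosphorylation list had a median log2 difference of -1.77 against WT library 1 and of -0.06 against WT library 2. Its summed level was 8629, 8328 and 8823 CPM in GFPlow, 21521 CPM in WT library 1 and 9126 CPM in WT library 2. WT library 1 was also the library with the raised mitochondrial and ribosomal protein shares, and their part in this difference was not tested. Cell cycle genes summed to 907, 947 and 1475 CPM in GFPlow against 2256 and 1304 CPM in WT, so that GFPlow library 3 lay between the WT libraries. The interferon list summed to 3243, 3217 and 4305 CPM against 3301 and 2778 CPM, again with overlapping groups.

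**Figure D4:**
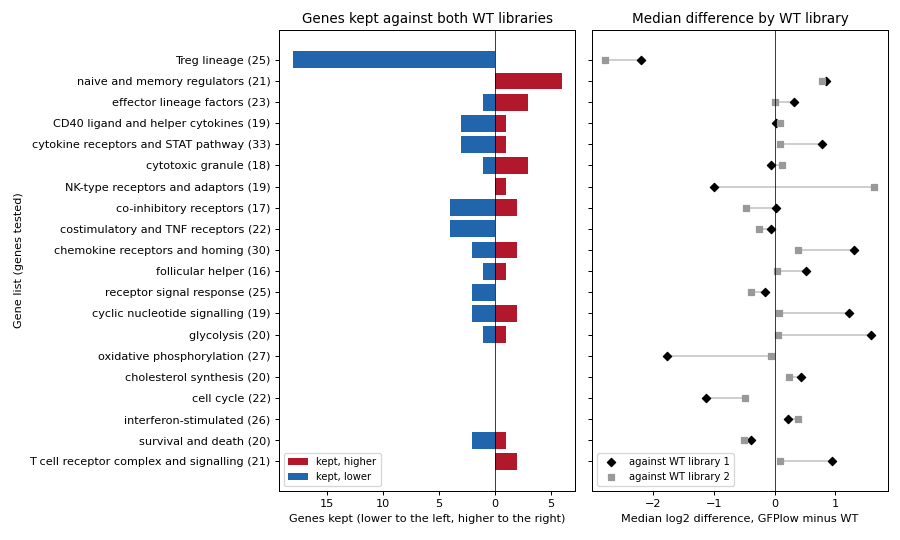
Left, the number of genes of each list kept as higher (red, right) or lower (blue, left) in GFPlow, with the number tested in parentheses. Right, the median log2 difference of each list from WT library 1 (black) and WT library 2 (grey), joined by a line, on a log2 CPM scale. The Treg lineage list has 18 genes kept as lower and similar medians against both WT libraries, whereas the median of the oxidative phosphorylation list is -1.77 against WT library 1 and -0.06 against WT library 2.

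Promoters were searched for the core letters of 4 motif families of T cells, because genes of 3 of these families (Foxp3, Tcf7 with Lef1, and Tbx21 with Eomes) were themselves kept, and the fourth lies downstream of the IL-2 receptor. The letters were GTAAACA (forkhead), ATCAAAG (TCF and LEF), GGTGTGA (T-box) and TTCNNNGAA (STAT), on both strands, with none contained in another. RefSeq promoters (GRCm38.p6, 250 bases before to 50 after a gene start) were matched by symbol for 10992 of the 18851 tested genes, 113 of the higher and 250 of the lower kept genes, and a gene with several starts was counted if any held the letters. T-box letters were in 7 of 113 higher (6.19%), 14 of 250 lower (5.6%) and 4.3% of all tested genes. STAT letters were in 10 of 113 (8.85%), 25 of 250 and 8.33%. Forkhead letters were in 2.65% of the higher, 2.8% of the lower and 3.2% of all tested genes, and TCF and LEF letters in 2.65%, 2.8% and 3.08%. Among all 32851 promoters of the table, 3.98% held T-box, 8.3% STAT, 3.65% forkhead and 3.73% TCF and LEF letters. The shares of kept genes were thus near those of all tested genes, and a match is a description of letters, not a binding site.

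Promoters with a match are printed for 3 genes described above, 1 that rose and 2 that fell, to show where the letters lie. They run 5′ to 3′ along the gene's strand, and capitals mark the matched letters. Gzmk (chr13:113180916-113181215, minus strand) holds T-box letters, Ctla4 (chr1:60908775-60909074, plus strand) TCF and LEF letters, and Lta (chr17:35205302-35205601, minus strand) STAT letters at 2 places.
Gzmk: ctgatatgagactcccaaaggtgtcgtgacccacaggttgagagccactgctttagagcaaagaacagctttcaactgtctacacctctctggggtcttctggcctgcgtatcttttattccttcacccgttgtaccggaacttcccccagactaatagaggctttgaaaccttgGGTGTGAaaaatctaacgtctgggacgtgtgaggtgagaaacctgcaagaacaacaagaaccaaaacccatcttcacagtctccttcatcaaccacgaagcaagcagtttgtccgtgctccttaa
Ctla4: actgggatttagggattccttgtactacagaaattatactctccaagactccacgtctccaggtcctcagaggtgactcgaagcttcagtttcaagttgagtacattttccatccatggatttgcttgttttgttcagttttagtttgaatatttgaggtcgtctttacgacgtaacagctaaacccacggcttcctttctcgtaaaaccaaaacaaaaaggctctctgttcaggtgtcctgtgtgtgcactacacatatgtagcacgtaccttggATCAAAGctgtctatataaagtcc
Lta: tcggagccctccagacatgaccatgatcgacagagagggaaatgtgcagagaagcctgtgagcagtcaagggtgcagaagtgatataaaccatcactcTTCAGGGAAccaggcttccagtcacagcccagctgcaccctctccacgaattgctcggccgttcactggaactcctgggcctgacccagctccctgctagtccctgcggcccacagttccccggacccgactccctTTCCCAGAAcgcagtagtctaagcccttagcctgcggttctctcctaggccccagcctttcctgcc

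Of the marker lists of other cells, B cell genes had the most calls, 3 lower of 10 tested (2.23% of all genes were called lower). Cd74, the MHC class II invariant chain that some T cells also express, was at 15.4, 15.1 and 18.8 CPM in GFPlow libraries 1 to 3 and 57.4 and 130.0 CPM in WT libraries 1 and 2 (log2 fold change -2.51 ± 0.32 SE, adjusted p = 0.00675). Cd79b, a chain of the B cell receptor complex, was at 3.62, 3.03 and 11.2 CPM in GFPlow libraries 1 to 3 and 70.4 and 50.6 CPM in WT libraries 1 and 2 (log2 fold change -3.34 ± 0.53 SE, adjusted p = 0.0161), and Ighd, the delta heavy chain, at 1.74, 4.65 and 4.67 CPM against 21.4 and 16.7 CPM (log2 fold change -2.37, adjusted p = 0.0381). The defining gene Ebf1 had no count in these 5 libraries, and Cd79a did not exceed 3.41 CPM. Pax5, a B cell factor, had 34, 78 and 1 counts in GFPlow and none in WT, and Igkc, the kappa light chain, was at 0.841, 119 and 10.2 CPM against 22.3 and 1.16 CPM, with GFPlow library 2 far above the rest. Ighm was abundant in all 5, at 828, 963 and 814 CPM against 612 and 819 CPM (log2 fold change 0.28, adjusted p = 0.451). Cd79b lost its call without GFPlow libraries 1 and 2 (adjusted p up to 0.0722), as did Ighd without each GFPlow library, each GFPhi library and WT library 1 (adjusted p up to 0.107).

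For innate-like T cells and NK cells, Zfp683, a factor of tissue-resident and innate-like cells, was kept as higher at 6.48, 5.73 and 6.24 CPM against 1.43 and 0.862 CPM (log2 fold change 2.43, adjusted p = 0.0394). Zbtb16, the defining factor of NKT cells, was at 2.19, 1.22 and 3.89 CPM against 0 and 0 CPM and was not counted in WT. Its adjusted p was 0.0995. Of 8 NKT markers tested, the GFPlow libraries all lay above both WT libraries for 3 (Zbtb16, Klrb1c and Zfp683) and below for 1 (Slamf1), where 21.1% and 19.2% of all tested genes did so. Trav11 lay above as well, but had too few counts to be tested (6, 3 and 24 against 0 and 2). Summed NKT markers lay between 181 and 215 CPM in GFPlow, against 220.02 and 254 CPM in WT, most of it Trbv13-2 and Slamf1. Without these 2 genes the sum was 21.9, 22.4 and 49.5 CPM in GFPlow, above the 15.4 and 7.2 CPM in WT. Summed NK markers lay between 151 and 242 CPM in GFPlow, against 179.7 and 515 CPM in WT, of which Il2rb alone gave 165 and 507 CPM in WT. Without Il2rb the NK sum was 29.6, 30.5 and 99.0 CPM in GFPlow, above the 14.5 and 8.14 CPM in WT. Slamf1 and Il2rb were the only members of their lists below both WT libraries in each GFPlow library. The direction of the sums without them was thus partly fixed by leaving them out. Of 7 NK markers tested, 3 (Klrb1c, Fcgr3 and Klrd1) were above both WT libraries in each GFPlow library and 1 (Il2rb) was below. Among all tested genes 21.1% and 19.2% did so, and Klrb1c is on both the NK and the NKT list. Gamma-delta markers were low, with Trdc at 4.5, 11.2 and 8.66 CPM against 9.51 and 4.53 CPM. The part of such cells in the rise of Gzmk, Klrk1 and Eomes was not tested. Zfp683 lost its call without each GFPlow library and each GFPhi library (adjusted p up to 0.137).

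Myeloid genes were uneven among the GFPlow libraries. Lyz2, a lysozyme of myeloid cells, was at 15, 0.223 and 197 CPM against 6.85 and 27.1 CPM (log2 fold change 2.06, adjusted p = 0.528), and Csf1r at 0.897, 0 and 11.1 CPM against 0 and 1.02 CPM. GFPlow library 3 stood out in both. The myeloid sum ranged from 343 to 669.8 CPM in GFPlow and was 1529 and 665 CPM in WT, most of it Ctss, a lysosomal protease gene that T cells express too, at 331, 337 and 391 CPM against 1476 and 618 CPM (called lower, not kept). Summed erythroid, platelet, stromal and neutrophil markers were higher in each GFPlow library than in either WT library, at 8.5 to 34.02, 69.6 to 92.2, 139 to 164 and 2.8 to 10.7 CPM against at most 6.77, 60.1, 107 and 2.04 CPM. In each of these lists, with 7, 7, 4 and 1 genes tested, 1 gene separated the groups as higher (Car2, Itgb3, Pecam1 and Mmp9). Of all tested genes, 21.1% did so. Gp9 of the platelet list and Col1a2 of the stromal list separated them as lower, as 19.2% of all tested genes did. Itgb3 made up most of the platelet sum in GFPlow, and Mmp9 most of the neutrophil sum. Pecam1 made up most of the stromal sum, at 138.2, 163.5 and 148 CPM against 35.1 and 105.9 CPM. The platelet, neutrophil and stromal sums thus rested on single genes. Car2 likewise gave 7.71 of 8.5 CPM and 13.1 of 14.5 CPM of the erythroid sum in GFPlow libraries 1 and 2. All other genes of the erythroid list were highest in GFPlow library 3 among the 5 libraries. The part of such cells in these sums was not tested. The genes Itgb3 (log2 fold change 1.85, adjusted p = 0.0106) and Car2 (log2 fold change 2.60, adjusted p = 0.0409) on the platelet and erythroid lists were kept as higher, while the platelet genes Ppbp and Pf4 were highest in WT library 1, at 26.7 and 13.1 CPM. Itgb3 was at 68.9, 85.1 and 85.8 CPM against 17.7 and 26.7 CPM and Car2 at 7.71, 13.1 and 17 CPM against 3.02 and 1.19 CPM. Col1a2, a collagen gene, had no count in GFPlow and 149 and 26 counts in WT (0.0397 as adjusted p). Neutrophil genes other than Mmp9 were at 0.102 CPM or less, dendritic genes Clec9a and Siglech at 0, and the stromal gene Dcn at 0. Ctss lost its call without each GFPlow library and each GFPhi library (adjusted p up to 0.183), as did Car2 without each GFPlow library and each GFPhi library (adjusted p up to 0.128) and Col1a2 without each GFPlow library, each GFPhi library and WT library 1 (adjusted p up to 0.115).

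A block of related predicted genes at the start of chromosome 14 was lower in GFPlow than in WT. It was noticed after the values were seen, so it is described with no test. Between 3049285 and 7643972 (GRCm38), all 54 tested genes had a fold change below 0, with a median of -4.59 on the log2 scale, and 45 of them are annotated as protein coding. The 3 GFPlow libraries all lay below both WT libraries for 50 of the 54, against 19.2% of all tested genes. Genes such as Gm3173 and Gm8206, without a count in GFPlow, passed the count filter only through WT or GFPhi libraries. Copies also share reads, so the counts of genes in this block were partly fixed in advance and are not separate observations. Called and kept as lower were 23 (1.94% of all genes were kept as lower), which make up 23 of the 33 kept lower genes of this chromosome, where 1 gene was kept as higher. Summed over the 45 coding genes, levels were 14.2, 7.13 and 7.79 CPM in GFPlow libraries 1 to 3 and 202 and 151.7 CPM in WT libraries 1 and 2. The 3 GFPhi libraries, which share the transgenic genotype, reached 129, 125 and 111 CPM.

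Single genes of this block showed the same order. Gm3739 (7293648 to 7315049) was at 3.46, 1.48 and 1.65 CPM in GFPlow libraries 1 to 3 and 27.8 and 23.7 CPM in WT libraries 1 and 2. Gm3636 (6735685 to 6742332) was at 2.56, 1.75 and 2.46 CPM in GFPlow libraries 1 to 3 and 18.9 and 11.6 CPM in WT libraries 1 and 2, and Gm3468 (6087295 to 6108665) at 2.07, 1.44 and 0.756 CPM in GFPlow libraries 1 to 3 and 13.2 and 12.3 CPM in WT libraries 1 and 2. The groups did not overlap for any of them. These genes are near-identical copies of each other, so the split of reads among them is uncertain and the sum over the block is the safer value.

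**Figure D5:**
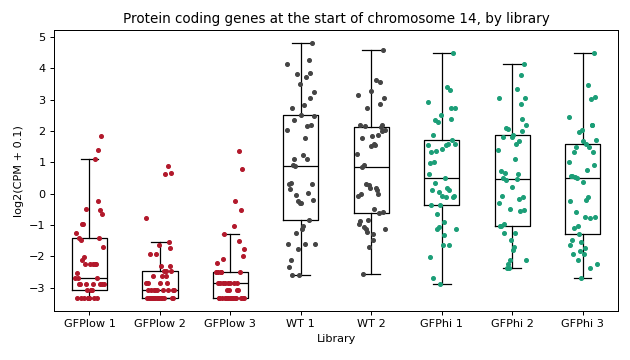
Levels of the 45 tested coding genes at the start of chromosome 14 as log2(CPM + 0.1), by library. Points are genes, and boxes span the quartiles with the median as a line. The medians of the 3 GFPlow libraries (red) lie below those of the 2 WT libraries (dark grey) and the 3 GFPhi libraries (green).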

How the data were processed

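RNA sequencing counts of 5 libraries (3 GFPlow, 2 WT) were compared, with 3 GFPhi libraries used for the count filter, the scaling and the spread. The deposited values are whole counts per Ensembl gene, not normalized. The submitters' processing notes name HISAT2 2.1.0, SAMtools 1.9, HTSeq 0.11.2, edgeR, R 4.0 and build GRCm38. For the role of each, the strand setting and the annotation, nothing is stated in the sources used here, so overlapping, antisense and near-identical genes are uncertain. Per the labels' protocols, sorted cells went into lysis buffer, and SMART-Seq HT was combined with Nextera XT for the libraries. Of 54837 identifiers, 54808 were matched to GENCODE vM21. Reads carry no molecular identifiers, so limits from counts hold for counting error alone.

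The model of edgeR 4.0.16 (filterByExpr, TMM, estimateDisp, glmQLFit with robust estimation, glmQLFTest, two-sided, 5 residual degrees of freedom) was fitted to all 8 libraries and adjusted by Benjamini-Hochberg over 18851 genes, with a threshold of 0.05. Differences from each WT library are between the GFPlow mean and that library in log2 CPM (prior count 2). Alternatives were other scalings and filters, DESeq2 1.42.0, limma 3.58.1 voom, a replicate block, fewer libraries and each library left out. The fit was also run on simulated data, and its outcome there is not reported here. Fits ran in R 4.3.3, and tables and plots were made in Python 3.11.15 with pandas 2.3.3 and matplotlib 3.10.9.

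Named were Havcr2, Foxp3, Gzmk, Klrk1, Eomes, Tcf7 and Cd40lg. Added were the 12 higher and 12 lower kept genes with the largest smaller difference from the 2 WT libraries (mean log2 CPM above 3, no predicted genes, pseudogenes or receptor segments), up to 4 genes with the smallest adjusted p of each list, and, from every marker list of another cell type, its 2 most abundant and its called genes. Some genes that the rule names are not reported here. Further list members were chosen after their values were seen, and the stability of their calls with a library left out is not given. Members, lists and tests were chosen with earlier results of these data known.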

Additional observations from a re-analysis of the deposited data

How the results depend on the processing

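The number of called genes depended on the tool and on which libraries set the spread. In place of 623 calls, DESeq2 called 3243, limma voom 74, a test of a log2 change above 1 184, and a fit on only the 5 libraries compared 33. The genes kept as higher (169) numbered 523, 5, 41 and 17 in these fits, and those kept as lower (366) numbered 750, 69, 143 and 16. Calls in both fits against a single WT library gave 428 higher genes. Against WT library 2 alone (1209) DESeq2 called 2448. With 1 library left out in turn, calls ranged from 213 (without GFPlow library 1) to 9002 (without WT library 2), genes kept as higher from 51 to 99 and those kept as lower from 162 to 228. Replicate numbers are shared by the groups, and the deviations of same-numbered GFPlow and WT libraries correlated at 0.016 and -0.0023. The deviations of the 2 WT libraries mirror each other, so these values cannot show whether libraries were paired. The main fit took no pairs and treated the GFPhi libraries as independent of GFPlow. Each GFPlow library correlated best with the GFPhi library of its own number (0.067, 0.066 and 0.149), a hint from the data. The titles of GFPlow and GFPhi libraries also share an M with that number, which WT titles lack, though no label says what it marks. Xist was at 184 and 237 CPM in GFPlow and GFPhi library 3 and at most 0.264 CPM in libraries 1 and 2 of both groups. With the replicate number as a block, 158 genes were called, 40 kept as higher and 118 as lower, and 31 of the 74 called genes of the naming rule were not called, among them Gzmk, Klrk1, Lef1, Txk, Dnah7a and Cd74. Other scalings, no filter, a filter of 5 CPM in 2 libraries and no robust estimation kept all counts within 1.5 times. Upper quartile scaling moved the median of all genes to -0.12 on the log2 scale. No kept gene changed sign in the 19 fits (with 435 of the 535 tested under the filter of 5 CPM), which the choice of kept genes by direction fixes in part and which is no sign of stability. Of 2330 recomputed values of named genes, 1896 kept direction and call, 319 lost the call, 84 gained one, 29 without a call changed sign, and 2 reversed. Those were Xbp1 and Irf8, which gave 0.53 and 0.92 on the log2 scale without WT library 2 and reached -0.70 and -1.17 without WT library 1. The causes were not tested. With only 2 WT libraries, a missing call does not show that a gene did not differ.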

Other observations

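Some genes named here were chosen after their values were seen and were too low for the naming rule. Tnfsf15, a TNF family cytokine, had no count in GFPlow and stood at 4.93 and 3.09 CPM in WT libraries 1 and 2. Cd70, the ligand of CD27, had none in GFPlow and 1.78 and 1.6 CPM in WT. Ccl20, the ligand of CCR6, had none in GFPlow and 6.16 and 1.36 CPM in WT. All 3 ligand genes were kept as lower. Ryr2, a calcium release channel, was at 0.0747, 0.447 and 0.0387 CPM in GFPlow libraries 1 to 3 against 13.2 and 12 CPM in WT libraries 1 and 2, and Naip6, a relative of Naip5 whose reads may be shared with it, at 1.01, 0.122 and 0.697 CPM against 14 and 16.8 CPM. In the other direction, App, the amyloid precursor gene, was at 8.5, 7.33 and 8.48 CPM in GFPlow, and Adgrg5, an adhesion G protein-coupled receptor, at 2.6, 1.2 and 7.5 CPM. P2ry1, a receptor for ADP, was at 1.03, 1.61 and 1.49 CPM. These 3 genes were kept as higher, and neither WT library held a read of them. Of all kept genes, 17 had no count in either WT library and 24 had none in any GFPlow library. Such genes could pass the count filter only through the libraries that held reads, so their direction was fixed in advance. Gzmk, Klrk1 and Col1a2, described above, are of this kind too.

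Several genes, also chosen after their values were seen, were uneven among the GFPlow libraries, and values are again for GFPlow libraries 1 to 3 against WT libraries 1 and 2. Immediate early genes were highest in GFPlow library 1, with Fos at 195, 10.8 and 10.2 CPM against 10.6 and 4.22 CPM, Jun at 55.9, 4.23 and 5.25 CPM against 3.5 and 1.45 CPM and Dusp1 at 136, 24.6 and 34.2 CPM against 31.1 and 90.9 CPM. GFPlow library 2 was highest for other genes, where the helper cytokine gene Il21 was at 5.92, 58.7 and 7.61 CPM against 1.52 and 0 CPM, the chemokine gene Ccl3 at 1.05, 23.5 and 0.969 CPM against 1.2 and 0 CPM and the plasma cell gene Jchain at 0.149, 23.5 and 2.38 CPM against 0 and 0.069 CPM. Among GFPlow libraries, proliferation genes were highest in library 3, with Mki67 at 16.3, 25.7 and 43.3 CPM against 68.4 and 53.7 CPM and Ccnb2 at 6.31, 18.8 and 50.7 CPM against 72 and 41.1 CPM. None of these genes passed the test between GFPlow and WT.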
